A study of Mus musculus with 3 samples.

Results

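The 5 genes described here, Kit, Kitl, Ly6a, Ly6c1 and Ly6e, encode cell surface proteins and a growth factor that are used to define progenitor cells. They were taken by name from the 3 tables of gene counts, which together list 27886 genes, and all 5 are listed in every table. For each gene the level was measured as CPM (counts of the gene per 1000000 gene counts of the sample), together with the share of cells in which it was found, and for Kit and Ly6a also how often both were found in the same cell.

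KIT is a receptor tyrosine kinase. Its ligand, stem cell factor, is the product of Kitl, is made as a membrane protein and can be shed by proteases. KIT signalling is known for the maintenance of blood stem cells, germ cells, melanocytes and mast cells. The Ly6 genes encode small proteins held at the outer membrane by a glycosylphosphatidylinositol (GPI) anchor. Ly6a encodes stem cell antigen 1 (SCA-1), Ly6c1 a form of the Ly6C antigen of endothelial and myeloid cells, and Ly6e a widely expressed member of the family. Antibodies to KIT and SCA-1 are used together to sort blood stem cells and have been used to isolate cells from the heart.

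All cells were male and came from F1 mouse stem cells of the cross C57BL/6 x CAST/EiJ, and no group carried another allele that the labels name. The first group was embryonic stem cells (mESC), grown in 2i medium with LIF. The second was heterogeneous cardiac precursor cell cultures (CPCC), taken from dissociated embryoid bodies, kept in medium with EGF and Fgf2 and passaged before use. The third was cardiac bodies (CB), aggregates kept in medium with ascorbic acid and picked for beating. Single cells were captured on microfluidic chips and full-length cDNA was sequenced from 215 cells of mESC, 175 of CPCC and 232 of CB. Each group is a single sample (n = 1), so no difference below was tested between groups. Cells are not replicates. The column names show 3 pools of mESC, 2 of CPCC and 3 of CB libraries. The study started from several clones, but no column name says which clone a pool or cell came from, so pools were set side by side and not used as replicates. No cell name occurred in more than 1 table and no cells had identical values.

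The median depth of a cell lay between 1397869 (CB) and 1528316 counts (mESC). All 10 pluripotent markers were found in most cells of each of the 3 mESC clusters. The cardiac labels were less visible. All 12 cardiomyocyte markers were listed in CB, with a summed level of 597 CPM (23.7 to 1357 CPM in the pools), but none was found in most cells of any CB cluster. Of 8 cardiac progenitor markers, 1 was found in most cells of 1 CB cluster and 1 in most cells of 1 CPCC cluster. The cells below are therefore called by their sample and their leading markers and not by a cardiac type.

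On the annotation GENCODE vM21 (GRCm38), Kit lies on chromosome 5 from 75574916 to 75656722 on the plus strand, with 8911 bases of merged exons. Kitl lies on chromosome 10 from 100015630 to 100100416 on the plus strand, with 5911 bases of merged exons. The Ly6 genes share a stretch of chromosome 15, with Ly6e at 74955051 to 74959905 on the plus strand, Ly6a at 74994877 to 74998031 and Ly6c1 at 75044018 to 75048830, both on the minus strand. Ly6i stands between Ly6e and Ly6a, and it was listed only in CPCC, at 0.478 CPM. Ly6c2 is the next gene beyond Ly6c1, and it had 0.0828 CPM in mESC and 0.140 CPM in CB and was not listed in CPCC. No annotated gene overlaps any of the 5, on either strand.

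The Ly6 genes are close relatives, which bears on how their reads were counted. Of all stretches of 31 bases in the transcripts of Ly6c1, 46.8% also occur in transcripts of other genes, against 31.9% for Ly6a, 0.422% for Ly6e and none for Kit and Kitl. The longest identical run of the coding sequences of Ly6c1 and Ly6c2 has 188 bases, which is longer than a sequencing read of the study. The longest run that the coding sequences of Ly6c1 and Ly6a share has 48 bases and is shorter than a read. Over whole transcripts Ly6c1 and Ly6a share 276 stretches of 31 bases, and runs outside the coding sequences were not measured. Both coding runs are shown here from the GENCODE transcripts. A single read can lie wholly within the longer run, where only its mate could tell the genes apart, whereas a read over the shorter run reaches beyond it.
Ly6c1 and Ly6c2, GRCm38 chr15:75045545-75048446 (minus strand, coding exons, joined across introns): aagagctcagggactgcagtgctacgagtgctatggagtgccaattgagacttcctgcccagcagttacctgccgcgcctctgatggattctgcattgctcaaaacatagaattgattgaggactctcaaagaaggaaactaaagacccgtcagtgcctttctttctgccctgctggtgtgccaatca
Ly6c1 and Ly6a, GRCm38 chr15:75045423-75045470 (minus strand, 1 coding exon): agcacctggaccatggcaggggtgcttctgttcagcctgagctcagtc
Among cells in which a gene was found, the deposited count was not a whole number for Ly6c1 in 44.4% of mESC and 63.6% of CB cells. The shares were 4.17% and 12.5% for Ly6a, 0% and 8.51% for Ly6e, 0% and 1.49% for Kitl, and 0% of either for Kit. Such counts thus also occurred in genes with little or no shared sequence. The CPCC table held whole numbers only. The values of Ly6c1 below may thus include reads that belong to Ly6c2, and those of Ly6a reads of its relatives, and these could not be told apart.

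Kit, the receptor, was highest in mESC, lowest in CPCC and between them in CB. Its mESC level was 76.3 CPM (95% Poisson interval 75.4 to 77.3, counting error only), its CPCC level 8.29 CPM (7.95 to 8.63) and its CB level 38.1 CPM (37.5 to 38.8). The mESC pools had 79.6, 75.2 and 74.4 CPM, the CPCC pools 10.9 and 5.87 CPM, and the CB pools 52.8, 55.2 and 16.1 CPM. No pool of any sample reached into the range of another sample. The log2 ratio of (CPM + 1) was -3.06 for CPCC over mESC, between -3.55 and -2.67 over the 6 pairs of single pools. For CB over mESC it was -0.98 (-2.23 to -0.42), and for CB over CPCC it was 2.08 (0.53 to 3.03).

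**Figure D1:**
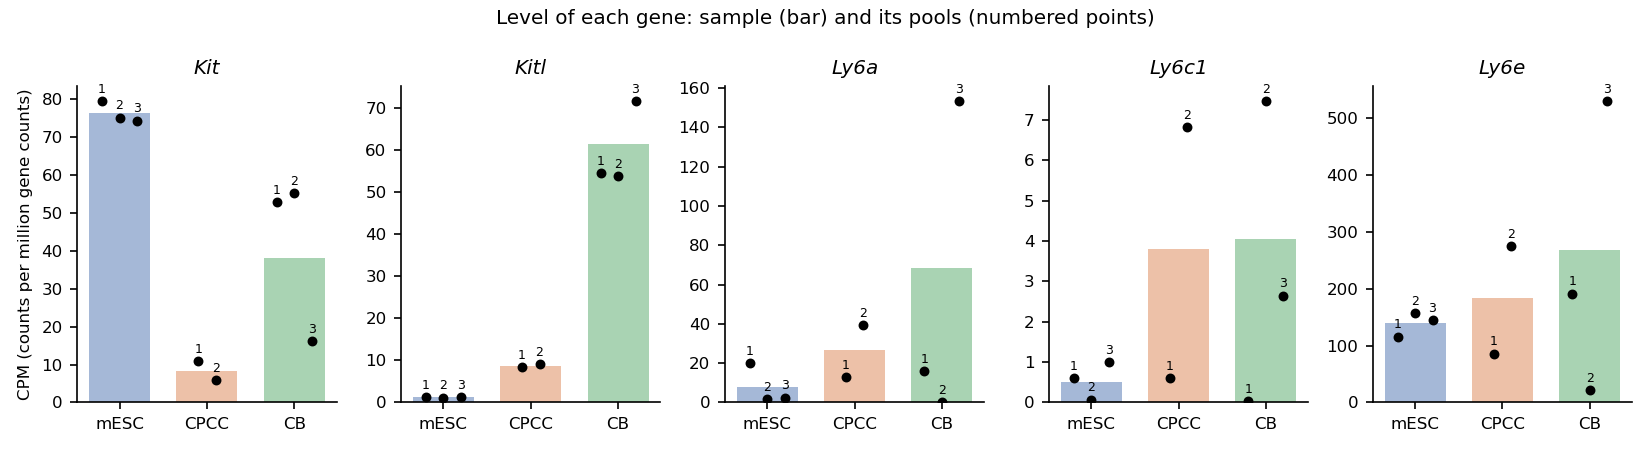
Level of each gene in CPM (vertical axis, linear, 1 panel per gene) in mESC, CPCC and CB. Bars give the sample, numbered points its pools. For Kit and Kitl the pools of a sample lie apart from those of the other samples, while Ly6a ranges from 0.0306 CPM in CB pool 2 to 153 CPM in CB pool 3.

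The share of cells with Kit separated mESC from the other samples. Kit was found, at 1 or more counts, in 202 of 215 mESC cells, a share of 94.0% with a Clopper-Pearson interval of 89.9 to 96.7%. The CPCC share was 25.1% (18.9 to 32.2%) and the CB share 31.9% (25.9 to 38.3%). With every cell thinned to 430000 counts the shares were 96.4%, 21.0% and 30.5%. The 13 mESC cells without Kit had a median of 7518 counts, and 4 of them passed the filter on depth, genes and mitochondrial share, with a median of 898108 counts. In cells that had it, the median level of Kit in mESC, CPCC and CB was 63.3, 17.3 and 51.0 CPM. The CB pools differed in this median, with 76.2 and 84.8 CPM in pools 1 and 2 and 15.7 CPM in pool 3. In mESC 37 cells held 50% or more of all Kit counts, in CPCC 5 and in CB 9.

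**Figure D2:**
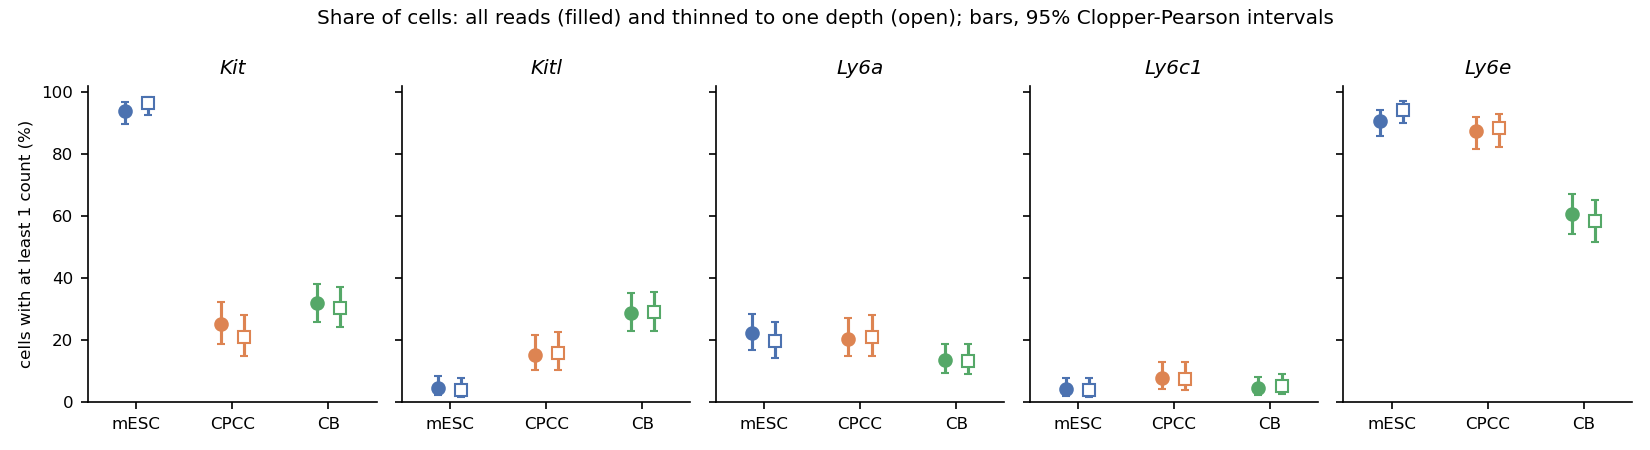
Share of cells with at least 1 count of each gene (vertical axis, percent) in the 3 samples. Filled circles use all reads, open squares cells thinned to 430000 counts, and bars are 95% Clopper-Pearson intervals. Kit stands at 94.0% in mESC and 25.1% in CPCC, and Kitl at 4.65% in mESC and 28.9% in CB.

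Kitl, the ligand of KIT, was lowest in mESC, where Kit was highest, and highest in CB. Its levels were 1.19, 8.78 and 61.6 CPM in mESC, CPCC and CB. The 3 mESC pools had 1.19, 1.12 and 1.29 CPM, the CPCC pools 8.44 and 9.09 CPM, and the CB pools 54.6, 53.9 and 71.7 CPM. These levels did not overlap between samples. The log2 ratio was 2.16 for CPCC over mESC (2.05 to 2.25 over pairs of pools), 4.83 for CB over mESC (4.59 to 5.10) and 2.68 for CB over CPCC (2.44 to 2.94). Shares of cells with Kitl were 4.65% (2.25 to 8.39%), 15.4% (10.4 to 21.6%) and 28.9% (23.1 to 35.2%) in the same order, and the thinned shares were 4.15%, 15.9% and 29.0%. Unlike the levels, the shares of the pools overlapped between CPCC and CB, with 20.3% in CPCC pool 1 and 15.9% in CB pool 1 (21.1% and 17.9% after thinning). Its median in cells that had it was 16.4, 19.7 and 120.0 CPM.

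Few cells held both the receptor and the ligand. Kit and Kitl were found together in 10 cells of mESC, which were all of its cells with Kitl, in 9 of CPCC and in 20 of CB. Among CB cells with Kit, 27.0% also had Kitl, and among CB cells without Kit, 29.7% did. The share was 20.5% against 13.7% in CPCC. The intervals of both pairs overlap, and no difference in Kitl between cells with and without Kit was read from them.

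Ly6a, which encodes SCA-1, had pools of mESC and of CB that lay further apart than the samples. The levels of the samples, mESC, CPCC and CB, were 7.65, 26.6 and 68.2 CPM. The mESC pools had 20.1, 1.60 and 2.35 CPM, the CPCC pools 12.9 and 39.3 CPM, and the CB pools 16.1, 0.0306 and 153 CPM. In CB pool 2 it was found in 2 of 78 cells, at up to 2.03 counts. The log2 ratio of CB over mESC was 3.0, with a range of -4.36 to 5.89 over the 9 pairs of pools, of which 4 were below 0. For CPCC over mESC it was 1.67 (-0.60 to 3.95) and for CB over CPCC 1.33 (-5.29 to 3.47). Without CB pool 3 the ratio of CB over mESC was -0.49 and that of CB over CPCC was -2.16, so the higher level of CB rests on that pool. Without CPCC pool 1 the ratio of CB over CPCC was 0.78, and without CPCC pool 2 that of CPCC over mESC was 0.68, both under 2-fold.

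The share of cells with Ly6a did not follow its CPM, and the intervals of the 3 samples overlapped. Ly6a was found in 22.3% of mESC (16.9 to 28.5%), 20.6% of CPCC (14.8 to 27.3%) and 13.8% of CB cells (9.63 to 18.9%), or 19.7%, 21.0% and 13.3% after thinning. No order was read from these shares. A few cells carried most of the CB counts: the 32 cells with Ly6a had a median of 164 CPM, the highest cell had 4183 CPM and 21.3% of the counts, and 3 cells held 50% or more. In mESC the median of the 48 cells with Ly6a was 33.9 CPM and in CPCC, over 36 cells, 40.2 CPM.

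Ly6c1 was found in few cells of each sample. Its levels in mESC, CPCC and CB were 0.512, 3.81 and 4.04 CPM, and it was found in 9, 14 and 11 cells (4.19%, 8.0% and 4.74%, or 4.15%, 7.64% and 5.24% after thinning). The mESC pools had 0.602, 0.0691 and 1.0 CPM, the CPCC pools 0.599 and 6.81 CPM, and the CB pools 0.0321, 7.46 and 2.65 CPM. In each sample 2 cells held 50% or more of its counts. The log2 ratio was 1.67 for CPCC over mESC and 1.74 for CB over mESC, and the pools overlapped in both. Without CPCC pool 2 the first was 0.08, and without CB pool 2 the other was 0.92. For CB over CPCC it was 0.07, but -0.08 with TMM scaling, -0.63 without CPCC pool 1 and -0.75 without CB pool 2. Without CPCC pool 2 Ly6c1 was at least 2-fold higher in CB than in CPCC.

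Ly6e, the widely expressed member, was found in 90.7% of the cells of mESC (86.0 to 94.2%), 87.4% of those of CPCC (81.6 to 92.0%) and 60.8% of those of CB (54.2 to 67.1%). Thinned shares were 94.3%, 88.5% and 58.6%. Its level went the other way, at 140.0, 183 and 269 CPM, so no order was read from the shares. The mESC pools had 116, 156 and 144 CPM, the CPCC pools 85.9 and 274 CPM, and the CB pools 191, 21.1 and 529.8 CPM. As for Ly6a, CB pool 2 was the lowest and CB pool 3 the highest of all pools. The log2 ratio was 0.39 for CPCC over mESC, 0.94 for CB over mESC and 0.55 for CB over CPCC, with pools that overlapped each time. Each ratio turned its direction when 1 pool was left out. CPCC over mESC was -0.70 without CPCC pool 2. Without CB pool 3, CB over mESC was -0.88 and CB over CPCC was -1.27, and the last of these was also -0.03 without CPCC pool 1. Other pools left out put Ly6e at least 2-fold higher. This held for CB over CPCC without CPCC pool 2 or CB pool 2, and for CB over mESC without mESC pool 2, CB pool 1 or CB pool 2.

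To set the genes side by side, levels were divided by the length of the merged exons of all annotated transcripts. The transcripts that the cells expressed may be shorter, and Ly6 genes may share reads. Whether near ranks depend on this was not tested. In mESC the order was Ly6e (37.0 CPM per kb), Kit (8.57), Ly6a (6.35), Ly6c1 (0.305) and Kitl (0.202). The pools of Kit and Ly6a overlapped, as did those of Ly6c1 and Kitl. In CPCC the order in CPM per kb was Ly6e (48.4), Ly6a (22.0), Ly6c1 (2.27), Kitl (1.48) and Kit (0.930), where Ly6e overlapped with Ly6a and Ly6c1 with Kitl. In CB it was Ly6e (71.0), Ly6a (56.6), Kitl (10.4), Kit (4.28) and Ly6c1 (2.41), and over the pools only Kitl and Kit, of these neighbours, did not overlap. Some pools had another order: Ly6a, at 16.7 CPM per kb, was above Kit (8.93) in mESC pool 1, and Ly6c1 (0.357) was below Kit (1.22) in CPCC pool 1. In CB pool 2 the order was Kitl (9.12), Kit (6.19), Ly6e (5.57), Ly6c1 (4.45) and Ly6a (0.0254).

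A ratio of at least 2-fold between samples was set against all genes listed in both tables. For CPCC over mESC, Kitl, Ly6a and Ly6c1 were higher (3 of 5, against 13.4% of 20272 genes) and Kit was lower (1 of 5, against 6.38%), so that 4 of 5 passed in either direction (19.7% of all genes). Without CPCC pool 2 only Kitl was higher. For CB over mESC the same 3 genes were higher (24.9% of 19855 genes) and none was lower (11.3%, and 36.2% in either direction). Ly6a did not pass without CB pool 3, nor Ly6c1 without CB pool 2. Kit, at -0.98, and Ly6e, at 0.94, lay just inside the limit of 1 on the log2 scale. For CB over CPCC, Kit, Kitl and Ly6a were higher (17.0% of 20995 genes) and none was lower (7.54%, and 24.5% in either direction). Ly6a did not pass without CPCC pool 1 and was lower without CB pool 3, as was Ly6e. These comparisons share samples. Of all calls in CB over CPCC 69.2% were higher, and 59.3% with TMM scaling, which moved the median log2 ratio of all genes from 0.14 to 0.03. In CB over mESC the same scaling put Kit at -1.15, past the limit, and DESeq2 size factors moved the median of all genes from 0.13 to 0.01.

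**Figure D3:**
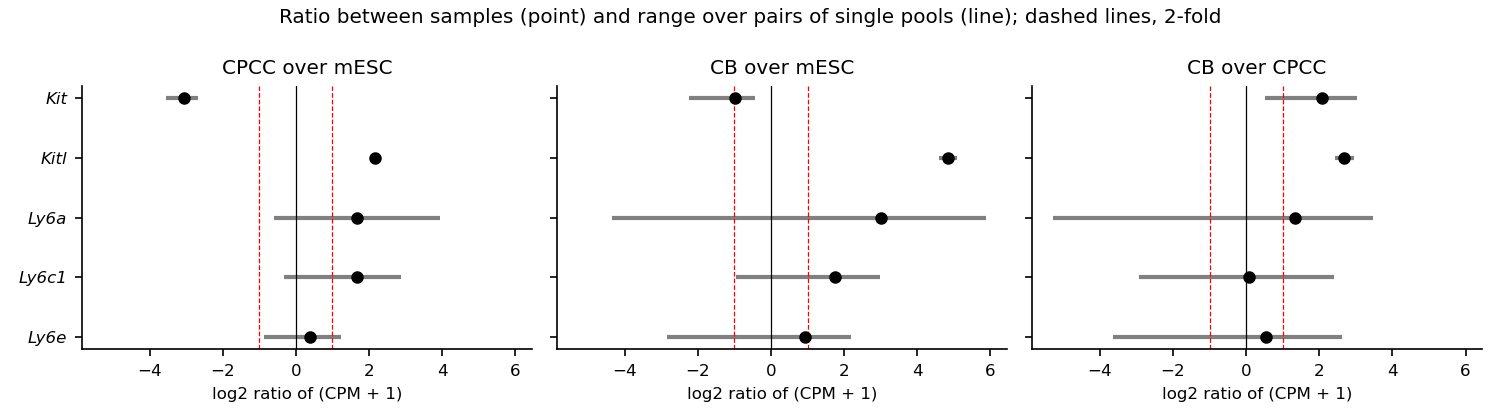
Log2 ratio of (CPM + 1) between samples (horizontal axis) for each gene, 1 panel per pair of samples. Points are the ratios of the samples, grey lines the range over all pairs of single pools, and dashed red lines mark 2-fold. The lines of Kit and Kitl stay on one side of 0 in each panel, while those of Ly6a, Ly6c1 and Ly6e cross it.

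Kit and Ly6a were in the same cell mainly in mESC. There both were found in 47 of 215 cells (21.9%, 16.5 to 28.0%), and 34 of the 47 belonged to pool 1. Ly6a was found in 39.5% of the cells with Kit in pool 1, in 11.1% in pool 2 and in 11.4% in pool 3. Since Kit was in nearly all mESC cells, 47 of the 48 cells with Ly6a had it. Among the cells with both, the median was 50.2 CPM of Kit and 33.2 CPM of Ly6a, and 34 had at least 10 counts of each.

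In CPCC and CB such cells were few. In CPCC 6 of 175 cells held both genes (3.43%, 1.27 to 7.31%), and in CB 7 of 232 did (3.02%, 1.22 to 6.12%). In CPCC, Ly6a was in 13.6% of cells with Kit (5.17 to 27.4%) and 22.9% of cells without (16.0 to 31.1%). In CB it was in 9.46% (3.89 to 18.5%) and 15.8% (10.5 to 22.5%). The intervals overlap in both samples, and no difference was read from these shares. In CB they also mix pools, since pool 2 held 34 of the 74 cells with Kit and pool 3 held 25 of the 32 cells with Ly6a.

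The cells with both genes differed in which of them was high. In CPCC 4 of the 6 had at least 10 counts of each gene, and 1 cell of pool 2 had 115 CPM of Kit, 180.0 CPM of Kitl, 117 CPM of Ly6a, 272 CPM of Ly6c1 and 2039 CPM of Ly6e. It was the only cell of the series in which all 5 genes were found. All 8 epithelial markers were found in it, beside 4 smooth muscle and 4 pluripotent markers, and it was in cluster 1. In CPCC clusters 0 and 2, 7 of 8 epithelial markers were found in most cells. Whether this cell was a doublet was not tested. Among the 7 CB cells 2 had at least 10 counts of each. One of these had 4183 CPM of Ly6a and 30.7 CPM of Kit, again with all 8 epithelial markers, and the other had 77.1 CPM of Ly6a and 11.02 CPM of Kit. In 4 more of the 7, Ly6a had at most 2.03 counts beside 144 to 1035 counts of Kit. At 5 or more counts of each gene, the share in CB was 0.862%. No cell of CB pool 1 had both, which at 3 counts of 69 cells allows a share of up to 4.35%.

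**Figure D4:**
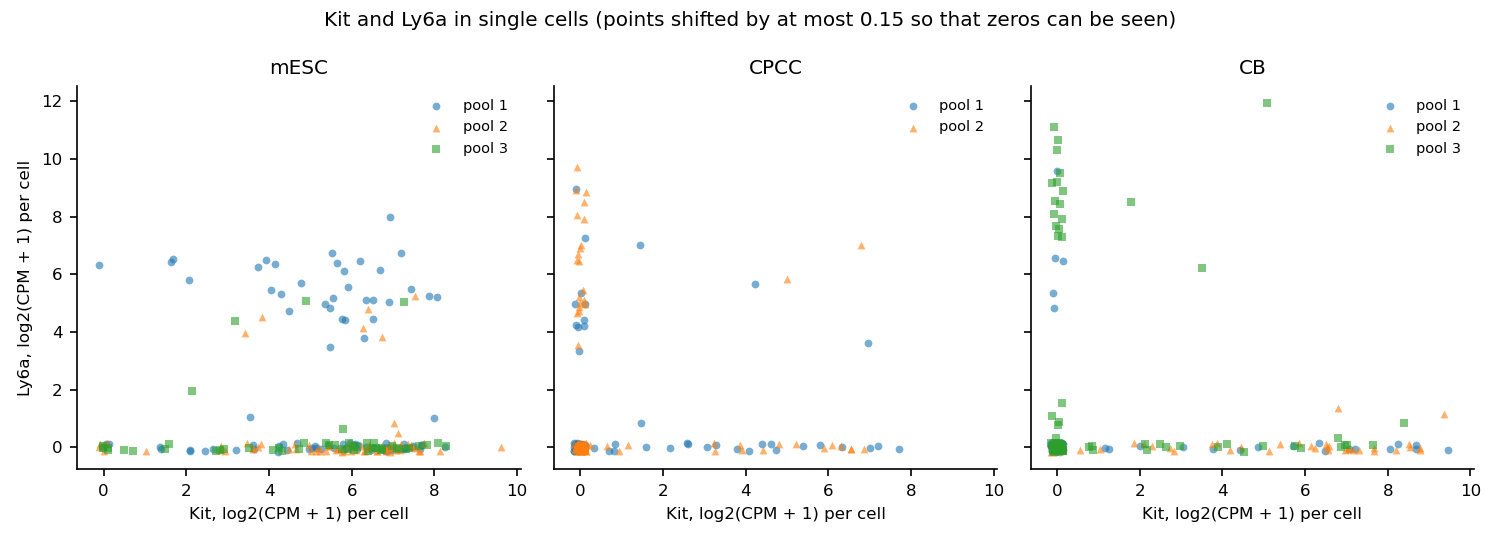
Kit (horizontal axis) and Ly6a (vertical axis) in every cell as log2(CPM + 1), 1 panel per sample, with marker shapes for pools and points shifted slightly at random so that they do not hide each other. In mESC most points with Ly6a are pool 1 cells that also have Kit, while in CPCC and CB most points lie on one of the axes, with 6 and 7 cells off both.

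Cells of each sample were clustered with the 5 genes left out, to see in which cells they were found. In mESC cluster 0 held 85 cells, 83 of them from pool 1. Ly6a was found in 35 of these 85 cells, which held 82.8% of its mESC counts, against 7 of 69 and 6 of 61 cells in the other clusters. The clusters of mESC were not given names, since each had all 10 pluripotent markers in most cells. The median depth of cluster 0 was 1180031 counts, the lowest of the 3. With cells thinned to equal depth, Ly6a was found in 35.4% of pool 1, 8.57% of pool 2 and 9.09% of pool 3 cells. The shares of the clusters were not tested in this way. Only 5 and 2 cells of pool 1 lay in clusters 1 and 2. The higher share of cluster 0 thus cannot be told apart from a difference between pools. Kit was at 75.8, 61.9 and 96.4 CPM in clusters 0, 1 and 2, in 83 of 85, 59 of 69 and 60 of 61 cells.

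In CPCC, at a resolution of 0.6, 1 cluster held most of the Ly6a, Ly6c1 and Kitl. Cluster 1 (55 cells) had 5 of 6 smooth muscle and 4 of 10 fibroblast markers in most cells. It was left unnamed, because its 10 leading genes by fold held 2 fibroblast markers and no smooth muscle marker. By difference in mean log2 level, its 10 leading genes held the smooth muscle markers Acta2 and Tagln and no fibroblast marker. Ly6a was found in 27 of the 55 cells of cluster 1 at 69.6 CPM, and these cells held 97.1% of the CPCC counts of Ly6a. The cluster also held 99.4% of the Ly6c1 counts, in 12 cells, and 90.2% of the Kitl counts, in 17 cells. At a resolution of 1.0 these counts were divided over clusters of 36 and 29 cells, which held 83.0% and 14.1% of the Ly6a, 49.2% and 50.2% of the Ly6c1 and 29.7% and 60.5% of the Kitl counts. The cluster held 53.6% of the Kit counts too, in 9 of the 55 cells, at 11.98 CPM. In the pluripotent-like cluster 0 (66 cells, 10 of 10 markers) Kit was found in 26 cells at 7.05 CPM, while Ly6a had 1.57 CPM in 6 cells. The order of the clusters in Kit differed between the pools: cluster 1 had 25.4 CPM and cluster 0 had 6.00 CPM in pool 1, against 5.06 and 20.5 CPM in pool 2.

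The macrophage-like cells of CPCC, cluster 3, stood out for Ly6e. They were 14 cells, all of pool 2, with 10 of 10 macrophage markers in most cells. Ly6e was found in 14 of 14 at 656 CPM, and they held 40.9% of its CPCC counts. Ly6a, Ly6c1 and Kitl were found in none of the 14, which at 3 counts of 14 allows a share of up to 21.4%, and Kit in 1, at 0.0317 CPM. Cluster 2 (30 cells) had 202 CPM of Ly6e and 9.68 CPM of Kit. Cluster 4 held 10 cells with a median of 76816 counts and a median mitochondrial share of 54.4%, and apart from Ly6e, in 3 cells, none of the 5 genes was found there.

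In CB the receptor and the Ly6 genes were divided among clusters. Cluster 3 was endothelial-like (20 cells, all of pool 2, 10 of 10 markers in most cells), and Kit was found in 17 of the 20 (85.0%, 62.1 to 96.8%) at 157 CPM. These cells were 20 of 232 and held 35.5% of the CB counts of Kit. Within pool 2, cluster 0 had 26.3 CPM of Kit, in 17 of 58 cells. In pool 1 that cluster had 76.6 CPM, in 6 of 24 cells, and in pool 3 it had 113 CPM, in 4 of 7 cells. Ly6c1 was at 33.8 CPM in cluster 3, in 4 cells that held 71.96% of its CB counts. Kitl was found in 10 of the 20 cells, at 64.1 CPM. Ly6a was at 0.139 CPM in 2 cells and Ly6e at 10.9 CPM in 4 cells. The 3 cells with the highest Kit counts of CB were in this cluster, with 9 or 10 of the 10 endothelial markers each. By CPM the highest cell was in cluster 0 and pool 1, at 737 CPM, with 4 endothelial and 6 fibroblast markers.

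Over all pools Ly6a and Ly6e were highest in the epithelial-like cluster 2 of CB (43 cells, 8 of 8 epithelial markers in most cells, and 5 of 10 fibroblast markers). Its leading genes by fold included keratins and the mesothelial marker Msln. Ly6a was at 266 CPM there, in 13 cells that all belonged to pool 3 and held 73.7% of its CB counts. Ly6e was at 668 CPM in 37 of the 43 cells. Both held only in pool 3. In pool 1, cluster 2 had 72.7 CPM of Ly6e and Ly6a in 0 of 11 cells, while the fibroblast-like cluster 1 had 292 CPM of Ly6e and 29.0 CPM of Ly6a, in 5 of 34 cells. Kit was found in 20 of the 43 cells, at 43.7 CPM, and both Kit and Ly6a in 3. The level of Kit was 159 CPM in the 11 cells of pool 1 (6 with Kit), close to that of the endothelial-like cells of pool 2, and 16.8 CPM in the 32 cells of pool 3 (14 with Kit). In the fibroblast-like cluster 1 (80 cells, 9 of 10 markers) Ly6e was at 367 CPM and Ly6a at 51.1 CPM, of which a single cell gave 52.9%. Ly6c1 was found in none of these 80 cells, which at 3 counts of 80 allows up to 3.75%.

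Kitl was found in every CB cluster. Over all pools it was at 69.2 CPM in cluster 0, at 77.3 CPM in cluster 1, at 16.1 CPM in cluster 2 and at 64.1 CPM in cluster 3. In pool 1 clusters 0, 1 and 2 had 143, 24.4 and 24.8 CPM, and in pool 2, which had 58 of the 89 cells of cluster 0, that cluster had 51.0 CPM. In pool 3 clusters 0, 1 and 2 had 161, 99.0 and 14.1 CPM, where the value of cluster 0 rests on 1 of 7 cells. A single cell gave 37.7% of the Kitl counts of cluster 1. Cluster 0 (89 cells, 58 of them from pool 2) was led by genes of the cell cycle and was left unnamed. Kit was found in 27 of its cells, at 37.9 CPM, and Ly6a in 3, at 0.0237 CPM. In the fibroblast-like cluster Kit was at 6.24 CPM. Cluster 3 came from pool 2 alone and clusters 1 and 2 had no cell of pool 2, so a difference between cluster 3 and those clusters cannot be told apart from one between pools.

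**Figure D5:**
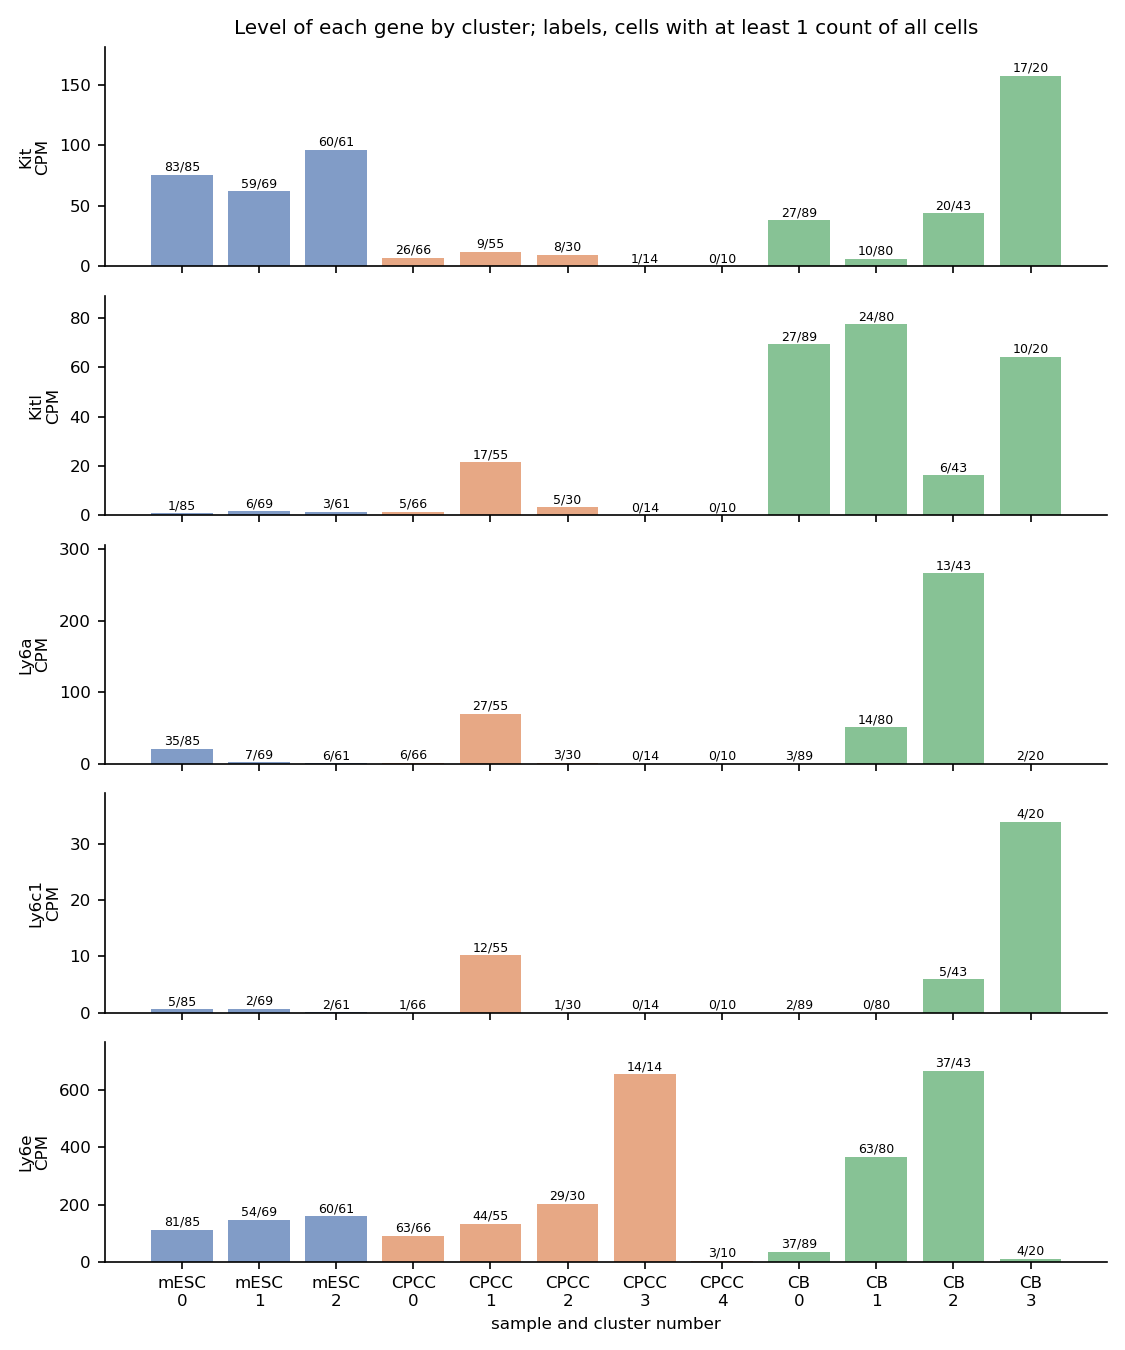
Level of each gene in CPM (vertical axis, linear, 1 row per gene) by sample and cluster number, with clusters made without the 5 genes. Labels above the bars give the cells with at least 1 count of all cells of the cluster. Over all pools Kit is highest in CB cluster 3 (157 CPM, 17 of 20 cells), Ly6a in CB cluster 2 (266 CPM), and Ly6e in CB cluster 2 and CPCC cluster 3.

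The genes whose level across single cells was most like that of the members were named by Pearson's r of log2(CPM + 1), as a description over cells that share libraries and depth. For Kit in CB, over 213 cells, they were Cd93, Icam2, Prkch, Esam and Cdh5, with r of 0.38 to 0.40. Of these, Cdh5 encodes the cadherin of endothelial junctions, and Cd93, Icam2 and Esam encode endothelial surface proteins. Within pool 2 their r was 0.46 to 0.56. In pool 1 it ran from -0.07 (Cd93 and Icam2) to 0.40 (Prkch), and in pool 3 from -0.03 (Cdh5) to 0.25 (Esam), where Cd93 and Icam2 gave no value. For Kit in CPCC, over 166 cells, Dpp4, Jade3, Lama1, Map7 and Rhox6 came first, at 0.37 to 0.39 (0.29 to 0.56 in pool 1 and 0.10 to 0.48 in pool 2). In mESC no gene passed 0.28.

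For Ly6a in CPCC the 5 most alike genes were Pappa, Aebp1, Tnc, Klhdc8a and Ptgs2, at 0.58 to 0.59, and between 0.49 and 0.65 within the pools. Tnc encodes the matrix protein tenascin C, and Ptgs2 a cyclooxygenase. In CB they were Ces2g, Urah, Ly6e, Serpinb11 and Pglyrp1, at 0.40 to 0.50. Their r was 0.31 to 0.51 in pool 3 and -0.06 to 0.32 in pool 1, while in pool 2 Urah and Ly6e were at -0.03 and the others gave no value. In mESC they were Gabarapl2, Gm49089, Gm3724, Id3 and Eif4a3l2, at 0.38 to 0.46, with r of 0.27 to 0.49 in pool 1, 0.15 to 0.38 in pool 2 and 0.01 to 0.29 in pool 3. Ly6e in CPCC was most like Psmb8, H2-K1, Alox5ap, Selenop and Pld4 (0.39 to 0.46). Psmb8 encodes a subunit of the immunoproteasome and H2-K1 a class I histocompatibility protein, and Pld4 was among the 10 leading genes by fold of the macrophage-like cluster. Their r was 0.42 to 0.52 in pool 2, which held all macrophage-like cells, and 0.10 to 0.22 in pool 1. The median r of the macrophage markers with Ly6e was 0.34 (0.01 in pool 1, 0.38 in pool 2) and that of the interferon list 0.15 (0.19 and 0.15). Ly6e in CB was most like Pcolce, S100a6, Tmem176a, Anxa1 and Ly6a (0.45 to 0.48). Within the pools these were lower for all but Ly6a in pool 3, at 0.05 to 0.36 in pool 1, -0.08 to 0.34 in pool 2 and 0.14 to 0.46 in pool 3. Kitl had r of at most 0.43 in CPCC, with Prnd (0.32 and 0.52 in the pools), and 0.30 in CB, with Mrpl11 (0.38, 0.09 and 0.33).

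Between the members themselves, Ly6a and Ly6c1 had r of 0.50 in CPCC (0.38 and 0.54 in the pools), 0.17 in mESC and 0.13 in CB. Ly6a and Ly6e had 0.45 in CB, 0.17 in CPCC and 0.05 in mESC. In CPCC 10 of the 14 cells with Ly6c1 also had Ly6a, and the cells with both made up 27.8% of the 36 cells with Ly6a. Because these genes share sequence, part of such counts may be the same reads. Kit and Ly6a had -0.09 in mESC, -0.10 in CPCC and -0.14 in CB (0.29 in CB pool 2, where Ly6a was found in 2 cells).

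Markers of other cell types moved with some members. In CB the summed level of the 10 endothelial markers was 1319 CPM in cells with Kit and 258 CPM in cells without. Most of this came from pool 2, with 2655 against 613 CPM, while pool 1 had 143 against 83.7 CPM and pool 3 had 38.0 against 68.1 CPM. The 8 epithelial markers summed to 2892 CPM in cells with Kit and 926 CPM in cells without in pool 1, to 1094 and 882 CPM in pool 2, and to 5934 and 2834 CPM in pool 3. In CPCC cells with Ly6a had 13209.5 CPM of the 6 smooth muscle markers against 3992 CPM in cells without, 1468 against 391 CPM of the 10 fibroblast markers, and 38.2 against 3024 CPM of the 10 macrophage markers. The smooth muscle and fibroblast sums were higher in cells with Ly6a in each pool, while the macrophage sums were 36.2 against 14.5 CPM in pool 1 and 39.4 against 6234 CPM in pool 2. CPCC cells with Kit had 5327 CPM of the 10 pluripotent markers and cells without it 2767 CPM. The sums were 6739 against 5098 CPM in pool 1 and 3101 against 833 CPM in pool 2. Mast cells are a well-known source of Kit, but of 6 mast cell markers only Hdc was listed in mESC and CPCC and Hdc and Fcer1a in CB, with a summed level of 0.122, 0.0906 and 4.63 CPM, and Cpa3, Tpsb2, Cma1 and Ms4a2 were not listed. Of the 6 germ cell markers 6 were listed in mESC, at 496 CPM in sum, 6 in CPCC, at 105 CPM, and 3 in CB, at 17.5 CPM. In each mESC cluster 4 of the 6 germ cell markers were found in most cells, so their sum there does not show germ cells apart from the stem cells. The part of mast cells or germ cells in the members' levels was not tested.

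The other genes of the KIT pathway were counted from a list of 22 signalling partners and adaptors. For CPCC over mESC 6 of 22 were at least 2-fold higher and 0 lower (median log2 ratio 0.81, all genes -0.02), and for CB over mESC 15 were higher and 1 lower (median 1.24, all genes 0.13). For CB over CPCC 8 were higher and 2 lower (median 0.59, all genes 0.14). Over all genes 13.4%, 24.9% and 17.0% were higher and 6.38%, 11.3% and 7.54% lower in these pairs. The adaptor gene Gab1 was the highest of the list in each sample, at 103, 137 and 99.2 CPM in mESC, CPCC and CB. Pik3r1, a regulatory subunit of PI3-kinase, was at 9.87, 22.6 and 79.0 CPM, the adaptor Shc1 at 34.1, 50.6 and 71.9 CPM, and the kinase gene Lyn at 5.44, 55.04 and 18.5 CPM. Pik3r1 and Shc1 thus had their highest level in the same sample as Kitl, and Lyn in CPCC.

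The related receptors and ligands of the family had 5 of 9 higher in CPCC over mESC and 6 of 9 in CB over mESC, with none lower, and 3 higher and 1 lower of 10 in CB over CPCC, against 13.4%, 24.9% and 17.0% of all genes higher. The median log2 ratios were 2.86, 2.62 and 0.29. Csf1r, the receptor of macrophage growth factor, was at 0.200, 92.8 and 7.48 CPM in the 3 samples, and Pdgfra at 0.137, 7.45 and 164 CPM. Both are also on the marker lists of macrophages and fibroblasts. Of the transcription factors known at the Kit gene, 3 of 6 were higher and 2 lower in CPCC over mESC, 2 higher and 1 lower in CB over mESC, and 4 of 7 higher and 1 lower in CB over CPCC (medians 0.24, -0.07 and 1.36). Of all genes 6.38%, 11.3% and 7.54% were lower in these pairs. Runx1 was at 0.419, 26.4 and 75.2 CPM and Mitf at 20.1, 4.06 and 8.14 CPM. Adam17, a protease that can shed the ligand, was at 23.5, 36.2 and 38.2 CPM, and was past 2-fold in no pair. The other protease gene compared in all pairs, Mmp9, was higher in each (13.4%, 24.9% and 17.0% of all genes were), at 0.504, 2.31 and 7.03 CPM. Adam33, the last of the 3 on this list, was higher in CB over mESC, at 3.62 against 0.0456 CPM, and was not listed in CPCC.

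The wider Ly6/uPAR family had 37 genes on its list, of which 19 were listed in mESC, 27 in CPCC and 22 in CB. For CB over mESC 9 of 13 were higher (24.9% of all genes) and 0 lower, with a median of 2.18. For CB over CPCC 14 of 19 were higher (17.0% of all genes) and 1 lower, with a median of 1.56. For CPCC over mESC 3 of 17 were higher, a share near the 13.4% of all genes, and 1 lower, with a median of -0.06. The highest in CB was Lypd2, at 135 CPM against 0.678 CPM in CPCC and 0.0427 CPM in mESC. Its CB pools had 29.6, 0 and 304 CPM, and it was among the 10 leading genes by fold of the epithelial-like cluster, which had 32 of its 43 cells in pool 3. The summed level of the list in the CB pools ranged from 103 to 828 CPM. The part of these cells in the list's level was not tested. Ly6d followed at 49.7 CPM and Lypd6b at 46.9 CPM in CB. In CPCC the highest was Plaur, the receptor of urokinase, at 62.3 CPM, against 0.729 CPM in mESC and 18.8 CPM in CB.

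Of the 18 genes that make and attach the GPI anchor 1 was higher and 3 were lower in CPCC over mESC, 3 higher and 1 lower in CB over mESC, and 1 higher and 1 lower in CB over CPCC. Over all genes 19.7%, 36.2% and 24.5% passed in either direction, and the medians of the list were 0.18, 0.13 and 0.49. The interferon response list, which was set because Ly6 genes are known to respond to interferon, had 5 of 14 higher and 1 lower in CPCC over mESC and 7 of 14 higher and 0 lower in CB over mESC. In CB over CPCC 10 of 19 were higher and 0 lower. The shares of all genes that were higher were 13.4%, 24.9% and 17.0%, and the medians of the list 0.65, 0.91 and 1.05. Its highest genes were Ifitm3 (518, 522 and 637 CPM), Ifitm2 (601, 326 and 528 CPM) and B2m (12.6, 409.96 and 421 CPM). The summed level of the list in the CB pools ranged from 597 to 3179 CPM.

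Of the 12 other progenitor surface genes, 6 of 10 were higher in CPCC over mESC and 9 of 10 in CB over mESC, with none lower, and 5 of 12 higher and 1 lower in CB over CPCC, against 13.4%, 24.9% and 17.0% of all genes higher. The medians were 2.55, 3.31 and 0.65. Cd34, a marker of blood and vessel progenitors, was at 1.46, 58.3 and 73.8 CPM, and Abcg2, a transporter gene used to mark side population cells, at 66.0, 109 and 62.2 CPM. Kdr, an endothelial receptor, was at 12.4 CPM in CPCC and 115 CPM in CB and was not listed in mESC.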

How the data were processed

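Single-cell RNA-seq tables of 3 samples were used, 1 per group. The members and gene lists were chosen with earlier results of these data known. The authors aligned paired reads with STAR 2.7 (mm10, per the labels) in Partek Flow and deposited 1 table per culture, with a column per cell and no scaling. The mESC and CB tables hold estimated counts (24.3% and 24.6% of values above 0 were more than 0.01 from a whole number), and the CPCC table deposited by the authors holds whole counts. The counting model, the use of strand and the reason for this difference are not given in the sources used here. Genes whose highest value is under 1 are not listed. In CPCC 208 rows without a gene and 23 date-like names (0.139% of counts) and 2 columns with no cell to map to were left out. Pools were numbered from the column names.

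Counts were summed over cells to CPM, with a log2 ratio of (CPM + 1), which understates the change of low genes, and a fold limit of 1 on that scale. A gene was found at 1 or more counts. Shares carry exact Clopper-Pearson and sums exact Poisson intervals at 95%. Reads have no molecular identifiers, so these cover counting error only. Where a gene was found in no cell, the share that a count of 0 allows was set at 3 counts of the total, which is lower than the upper Clopper-Pearson limit. Thinning to 430000 counts dropped the shallower cells (22, 18 and 22 in mESC, CPCC and CB). The median cell had 1528316, 1437414 and 1397869 counts. For correlations, marker sums and the cell filter, cells needed 100000 counts, 2000 genes and at most 20% mitochondrial counts (190, 166 and 213 cells). Clusters were made per sample in Seurat 5.3.0 (LogNormalize, 10 principal components, resolution 0.6) without the members. A cluster was named from a marker list only if at least 3 of its markers were found in over 50% of cells and its leading genes did not go against the name. No doublet caller was run. Named genes were the members, the 3 highest genes of each list in a sample, the 5 genes with the highest r per member and sample (found in at least 10% of cells) and the chromosomal neighbours. The single cells and the mast cell markers described one by one, and Msln, were chosen after their values were seen. Scaling factors came from edgeR 4.0.16 (TMM) and DESeq2 1.42.0. Scripts were tested on simulated data. No differential test was run, because each group has 1 sample.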

Additional observations from a re-analysis of the deposited data

How the results depend on the processing

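No paired analysis was possible because each group has 1 sample and the cell columns hold pools without a replicate number, and no result comes from a test. The number of members past 2-fold stayed within 1.5 times the reported count under 65 of 74 alternatives. With a pseudocount of 10 CPM, 1 member instead of 3 was higher in CPCC over mESC. Kit passed the limit in CB over mESC, giving 1 lower member instead of 0, with TMM, with DESeq2 size factors and with the mean CPM of single cells. Leaving out 1 pool at a time, the members higher in CPCC over mESC numbered 1 (without CPCC pool 2) to 3, those higher in CB over mESC 2 to 4, those lower in CB over mESC 0 to 1 (without CB pool 1 or 2), those higher in CB over CPCC 2 to 5 (5 without CPCC pool 2), and those lower in CB over CPCC 0 to 2 (Ly6a and Ly6e, without CB pool 3). With 1 pool left out at a time the log2 ratio of Ly6a was -0.49 (without CB pool 3) to 4.57 for CB over mESC and -2.16 (without CB pool 3) to 2.32 for CB over CPCC. The sign of a ratio changed under 10 of 185 alternatives, 2 for Ly6a, 4 for Ly6e and 4 for Ly6c1, of which only those of Ly6a concern a ratio past 2-fold. Over all 5 genes, 176 alternatives moved a ratio by less than the spread of the pools. They included the changes of sign of Ly6e and Ly6c1, whose pools lie far apart. Beside the reversals of Ly6a, 7 other alternatives concerned Kitl and Kit and kept the sign. Of these, 6 came from the pseudocount. The last (Kitl, CPCC over mESC, 2.05) came from an alternative added after seeing the data, which left out the cell with most counts of a gene.

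At 5 and 10 or more counts the share of cells with Kit was 87.0% and 82.3% in mESC and 18.3% and 15.4% in CPCC, and at 10 or more 23.7% in CB. The share with Ly6e was 50.4% and 49.6% in CB, and at 10 or more 85.6% in mESC, where it was 94.3% thinned and 96.8% with the cell filter. Kit reached 97.9% of mESC cells with the cell filter, and Ly6c1 was in 1.86% of mESC cells at 10 or more counts. Both Kit and Ly6a were in 15.8% of mESC cells at 10 or more counts and in 37.8%, 10.4% and 10.4% of pools 1, 2 and 3 by themselves. In CB they were in 0.862% at 5 or 10 or more counts and in 0% of pool 1. The share of cells with Kit, Ly6a or Ly6e in the clusters with most endothelial, epithelial, smooth muscle or macrophage markers stayed within its interval with 15 principal components and at resolution 1.0. This says nothing of Kitl and Ly6c1 in CPCC, whose counts were then divided over clusters.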
